A study of Mus musculus with 6 samples.

Results

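The Bcl2 family of survival and death genes was examined through 10 members, of 22565 gene symbols that could be named on the array. They were chosen by name for their roles, as the pro-survival genes Bcl2, Bcl2l1 and Mcl1, the effectors Bax and Bak1, and the BH3-only genes Bcl2l11, Bbc3, Pmaip1, Bad and Bid. Every probe whose RefSeq accession maps to one of these symbols was used, which gave 18 probes. The cells were TEa cells, CD4+ T cells of C57BL/6 background with a transgenic receptor (Vα2+Vβ6+), marked by CD45.2. B6.SJL CD45.1+ recipients were given these cells on day -1 and a Balb/c heart on day 0, and the spleens were sorted for CD45.2+ TEa cells on day 6. One group received cells labelled Irf4-/- and 200 µg anti-PD-L1 with 200 µg anti-CTLA-4 (9D9) on days 0, 3 and 5, and is called blockade. A further group received cells labelled Irf4-/- and 400 µg rat IgG on the same days, and is called KO IgG. The last group received WT cells and is labelled as treated with rat IgG, with no dose stated, and is called WT IgG. Each group has 2 single-colour Agilent arrays from independent experiments, here array 1 and array 2, and this number limits the precision. The p-values rest on a single spread per probe, pooled over the 3 groups and moderated by that of all probes tested. A wide spread in any group therefore also widens the error of a comparison that leaves this group out.

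Bcl2 family proteins decide whether the outer mitochondrial membrane is opened and the cell dies. Bcl2, Bcl2l1 (Bcl-xL) and Mcl1 hold the effectors Bax and Bak1 in check, and BH3-only proteins such as Bcl2l11 (Bim), Bbc3 (Puma) and Pmaip1 (Noxa) bind the pro-survival members and release or activate the effectors. In T cells, Bim is known as a main driver of death after an antigen response, and Bcl2 and Mcl1 as its chief opponents. IRF4 is a transcription factor that rises on T cell receptor signalling, and PD-L1 and CTLA-4 are ligand and receptor of inhibitory checkpoint pathways.

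Values are the deposited processed signals, a linear intensity for each probe. Comparisons used the 10225 probes whose log2 intensity averaged 8 or more over the arrays, called bright here, which were quantile-normalised among themselves, so a difference is relative to the other bright probes. limma fitted the 3 groups together and p-values were adjusted by the Benjamini-Hochberg method over all 10225 probes, with a threshold of 0.05. Of the members, 11 probes of 9 genes were bright and were tested. The other 7 probes (the only one of Pmaip1, 3 of Bcl2l1 and 3 of Bcl2l11) are given as unscaled intensities. The level of one probe is not set against that of another. In bulk RNA, fewer cells that express a gene and less RNA of it per cell cannot be told apart.

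Several facts of the arrays bear on all results. Weak probes were brighter on the KO IgG arrays. Probes well above background made up 40.0% and 34.8% of all with blockade and 65.8% and 75.2% in KO IgG, against 37.6% and 40.8% in WT IgG. The Irf4 probe with the higher signal read 2071 and 1703 with blockade and 2128 and 3073 in KO IgG, against 673 and 1068 in WT IgG. That direction goes against a loss of the whole transcript, and where the probe lies relative to the deleted part is not known here, so groups are named as labelled. The T cell markers were well above background on every array (7 of 7 measured). The summed intensity of 8 B cell markers was 369 and 381 with blockade and 1009 and 4970 in KO IgG, against 203 and 210 in WT IgG, with Cd79a and Blk not well above background on any blockade or WT IgG array. Of monocyte, macrophage and neutrophil markers 9 of 10 were measured, with sums of 4436 and 7249 with blockade and 8109 and 67806 in KO IgG, against 4337 and 5244 in WT IgG, and Lyz2 and Adgre1 not well above background on any blockade or WT IgG array. S100a9 and S100a8 carried most of the sum on KO IgG array 2, at 44805 and 15377. Of the others, Lyz2, Cd68, Mpo and Elane were higher there than on KO IgG array 1, and Csf1r, Itgam and Adgre1 were lower. Erythroid and platelet markers (7 of 8 measured) summed to 9328 and 5796 with blockade and 1411 and 45683 in KO IgG, against 156 and 643 in WT IgG. Hba-a1 carried most of these, at 9121 and 5672 with blockade and 1152 and 44583 in KO IgG, against 127 and 612 in WT IgG. Sums of 6 dendritic cell markers were 7384 and 4777 with blockade and 23943 and 13089 in KO IgG, against 7574 and 13943 in WT IgG. Siglech carried most of these sums, at 7367 and 4738 with blockade and 23793 and 12858 in KO IgG, against 7552 and 13923 in WT IgG, and the other 5 were not well above background on any blockade or WT IgG array. Markers of CD8 T and NK cells summed to 1193 and 1654 with blockade and 1149 and 3964 in KO IgG, against 1149 and 1096 in WT IgG. The part of these other cells in the member results was not tested. The values without KO IgG array 2 given below are not such a test, because other cell markers remain. The KO IgG array left in had a B cell sum of 1009, above both WT IgG arrays, and the highest dendritic cell sum, 23943.

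With KO IgG set against WT IgG, the comparison by Irf4 genotype as labelled, Bcl2 was the 1 member gene that passed the test. It was higher by 1.23 on the log2 scale, or 2.34-fold. This was 1 of 11 member probes, beside 2.41% of all bright probes (1.41% counting the higher ones). No member passed when blockade was set against KO IgG, the comparison by antibody treatment, where 0.9% of bright probes passed, or against WT IgG, where 0.724% did. At an unadjusted p under 0.05, limma marked 5, 4 and 3 of the 11 member probes in these comparisons, beside 23.3%, 28.6% and 19% of bright probes. The groups did not overlap for 6, 8 and 6 of the 11 member probes, beside 52.5%, 62.3% and 55% of bright probes. Over the brightest probe of each of the 9 tested genes, the median log2 fold change was 0.43 for KO IgG against WT IgG, -0.09 for blockade against KO IgG and 0.05 for blockade against WT IgG, while over all bright probes it was -0.02, 0.03 and 0.00. The comparisons share arrays, so their values are not independent of each other.

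**Figure D1:**
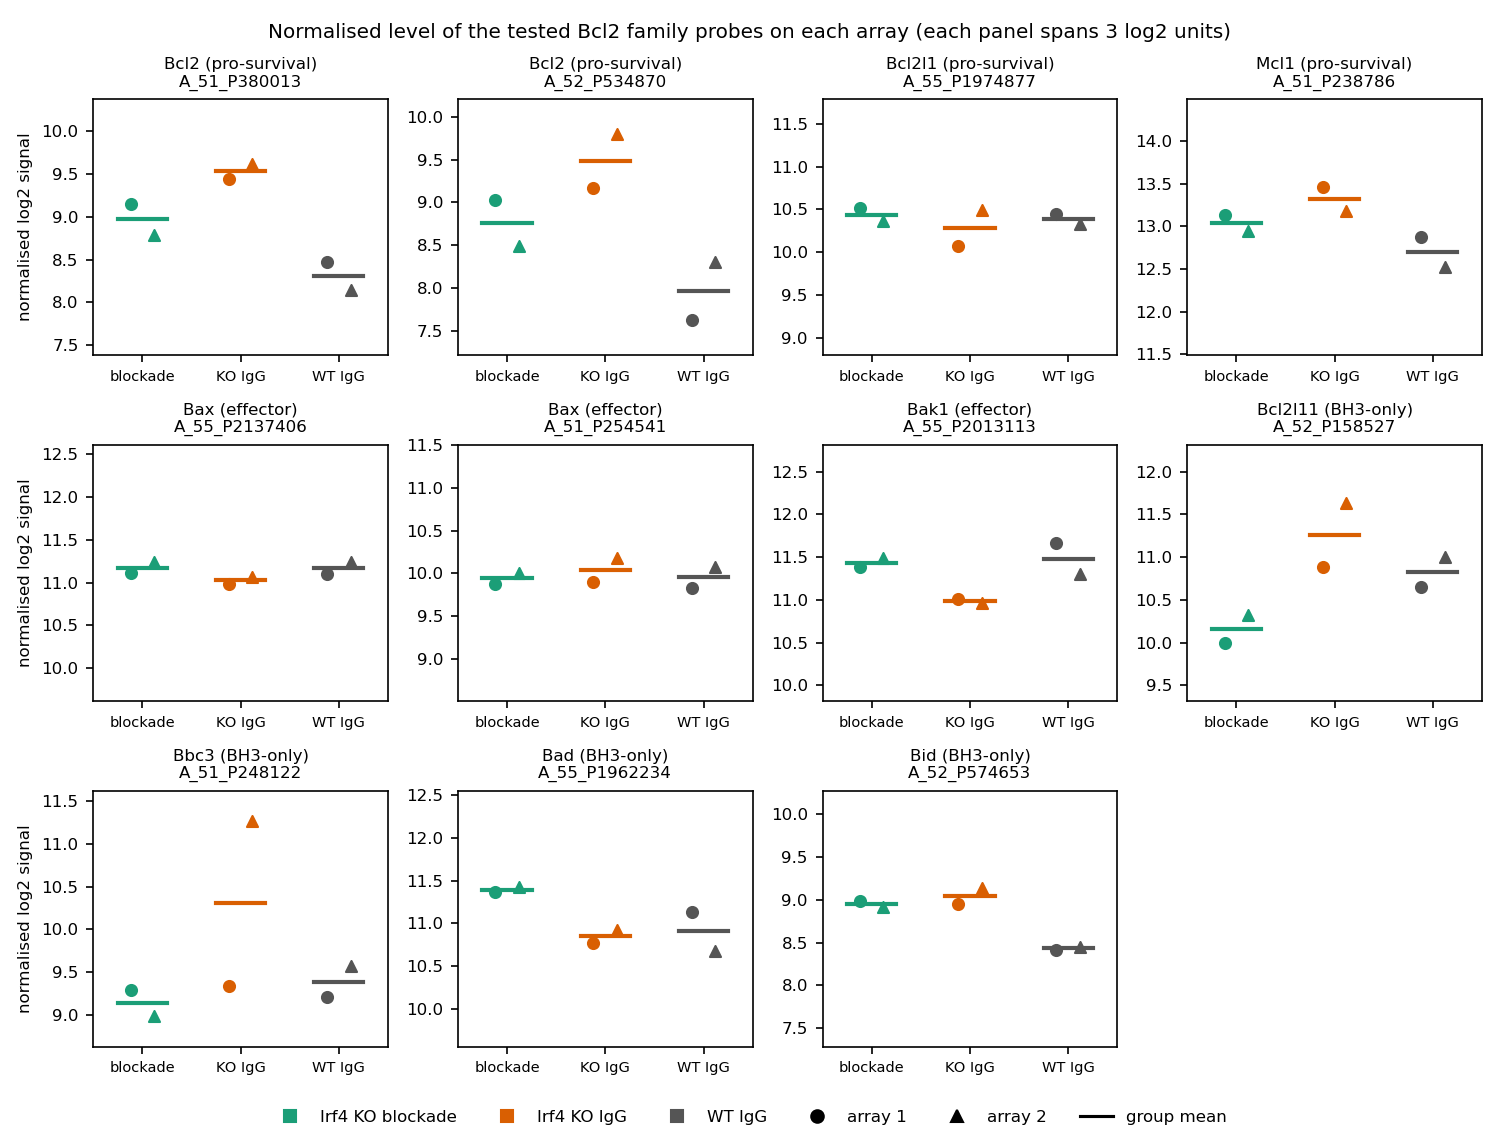
Normalised log2 signal of the 11 tested member probes (vertical axis, 3 log2 units in each panel) on each array, with circles for array 1, triangles for array 2 and a bar for the group mean, in blockade, KO IgG and WT IgG from left to right. Both Bcl2 probes sit highest in KO IgG and lowest in WT IgG, Bcl2l11 sits lowest with blockade, and the spread of Bbc3 in KO IgG is that of a single high array.

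Among the pro-survival genes, Bcl2 was measured by 2 bright probes, which carry accessions of different transcripts of the gene. Probe A_51_P380013 of Bcl2 had unscaled intensities of 522 and 306 with blockade and 702 and 1201 in KO IgG, against 299 and 322 in WT IgG. Its normalised log2 levels were 9.15 and 8.79 with blockade and 9.45 and 9.62 in KO IgG, against 8.47 and 8.14 in WT IgG. The 3 groups did not overlap on this scale, with blockade between the others. The KO IgG minus WT IgG difference of 1.23 (SE 0.19, 95% interval 0.77 to 1.69) passed in limma (adjusted p = 0.0468). The blockade minus KO IgG difference of -0.56 (SE 0.19, limma adjusted p = 0.130) and the blockade minus WT IgG difference of 0.67 (SE 0.19, limma adjusted p = 0.152) did not.

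Bcl2 probe A_52_P534870 read 480 and 243 with blockade and 584 and 1345 in KO IgG, against 160 and 360 in WT IgG. Its normalised log2 levels were 9.03 and 8.49 with blockade and 9.16 and 9.80 in KO IgG, against 7.63 and 8.30 in WT IgG, in the same order and again without overlap. It missed the threshold for KO IgG against WT IgG (1.52, SE 0.33, limma adjusted p = 0.0790), for blockade against KO IgG (-0.72, SE 0.33, limma adjusted p = 0.217) and for blockade against WT IgG (0.80, SE 0.33, limma adjusted p = 0.277). The Bcl2 call rests on all 6 arrays. Without any 1 of them (either array of blockade, KO IgG or WT IgG) the difference of the first probe was between 1.05 and 1.38 and the limma adjusted p between 0.0833 and 0.142, and without KO IgG array 2, the array with the highest sums of B cell, myeloid and erythroid markers, it was 1.16 (limma adjusted p = 0.0858). With the slide row as a block the first probe missed the threshold (limma adjusted p = 0.0699) and the other Bcl2 probe, A_52_P534870, passed (1.52, limma adjusted p = 0.0338). The call of the first probe was also lost with the 4 arrays compared (limma adjusted p = 0.111). On a scale set by each array's 75th percentile, where the median bright probe was lower by 1.04 in KO IgG than in WT IgG (log2 difference -1.04), the first Bcl2 probe was higher by 0.36 (limma adjusted p = 0.257), which is 1.41 above that median.

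Mcl1, a short-lived protein that T cells need for survival, had the unscaled intensities 8728 and 6339 with blockade and 9295 and 12088 in KO IgG, against 7113 and 7213 in WT IgG. Its normalised log2 levels were 13.13 and 12.94 with blockade and 13.46 and 13.18 in KO IgG, against 12.87 and 12.52 in WT IgG, in the same order as Bcl2 and again without overlap. The differences were 0.62 for KO IgG against WT IgG (SE 0.18, limma adjusted p = 0.127), -0.28 for blockade against KO IgG (SE 0.18, limma adjusted p = 0.330) and 0.34 for blockade against WT IgG (SE 0.18, limma adjusted p = 0.369). None passed. On the 75th percentile scale the first was -0.64, which is 0.41 above the median bright probe.

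The bright probe of Bcl2l1, whose product Bcl-xL is induced by costimulation in T cells, showed no difference beyond the spread between arrays. It had normalised log2 levels of 10.52 and 10.36 with blockade and 10.07 and 10.50 in KO IgG, against 10.44 and 10.33 in WT IgG, and the 3 groups overlapped. The 95% interval of the difference was -0.54 to 0.33 for KO IgG against WT IgG, -0.28 to 0.59 for blockade against KO IgG and -0.38 to 0.48 for blockade against WT IgG.

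A different picture came from a further Bcl2l1 probe that carries the same accession. Probe A_66_P122989 read 49.7 and 39.4 with blockade and 666 and 1718 in KO IgG, against 44.7 and 74.2 in WT IgG, and was well above background on all 6 arrays. Its mean lay under the brightness minimum, so it was not among the tested probes. With a minimum of 7 it was, and its log2 fold change was 3.64 for KO IgG against WT IgG (limma adjusted p = 0.0191), -3.95 for blockade against KO IgG (limma adjusted p = 0.0318) and -0.31 for blockade against WT IgG (limma adjusted p = 0.705). It reached that minimum through the KO IgG arrays. Relative to the median bright probe of the same array, its log2 values were -4.34 and -4.30 with blockade and -0.65 and 0.09 in KO IgG, against -4.41 and -4.11 in WT IgG. Thus 2 probes annotated to the same transcript gave different patterns, one overlapping in all groups and the other high on both KO IgG arrays and low on the other 4. The remaining 2 Bcl2l1 probes were also brightest in KO IgG. A_52_P510877 read 19.4 and 18.7 with blockade and 66.3 and 181 in KO IgG, against 20.1 and 27.2 in WT IgG, where 1 array of blockade and 1 of WT IgG were not well above background. A_55_P2500448 was well above background on KO IgG array 2 only, at 104.

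Among the effectors, whose products form the pores of the outer mitochondrial membrane, no probe passed. Bak1 had normalised log2 levels of 11.39 and 11.49 with blockade and 11.01 and 10.97 in KO IgG, against 11.66 and 11.30 in WT IgG. The KO IgG arrays were the lowest and did not overlap with either other group. The difference was -0.49 for KO IgG against WT IgG (SE 0.15, limma adjusted p = 0.145), 0.45 for blockade against KO IgG (SE 0.15, limma adjusted p = 0.136) and -0.05 for blockade against WT IgG (SE 0.15, limma adjusted p = 0.901).

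Bax was measured by a pair of bright probes, and its groups lay close together. Probe A_55_P2137406 had normalised log2 levels of 11.11 and 11.24 with blockade and 10.98 and 11.07 in KO IgG, against 11.10 and 11.24 in WT IgG. Probe A_51_P254541 had 9.88 and 10.01 with blockade and 9.90 and 10.18 in KO IgG, against 9.83 and 10.07 in WT IgG. The groups differed by no more than 0.15 in either direction at either probe. The 95% interval for blockade against KO IgG was -0.16 to 0.45 at A_55_P2137406 and -0.48 to 0.29 at A_51_P254541.

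**Figure D2:**
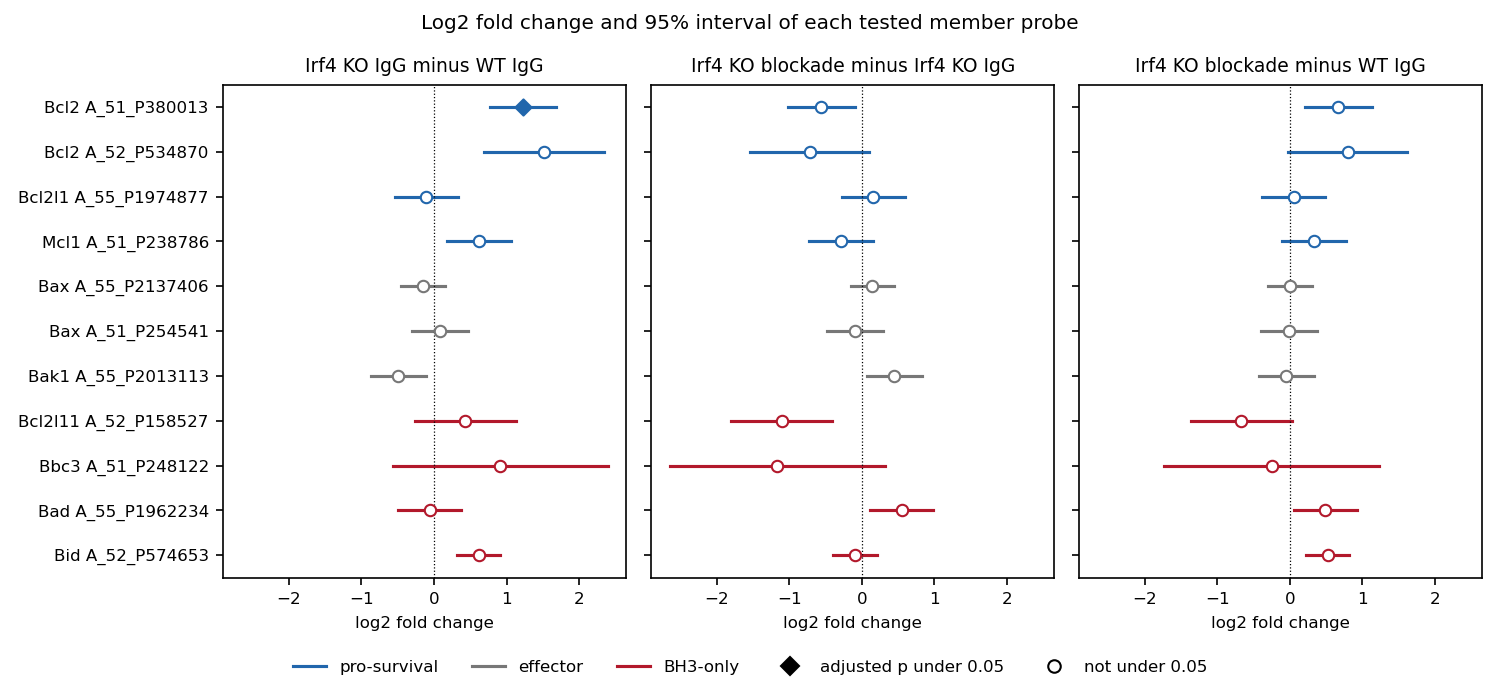
Log2 fold change (horizontal axis) with its 95% interval for each of the 11 tested member probes, in KO IgG against WT IgG, blockade against KO IgG and blockade against WT IgG from left to right, coloured by role. The filled diamond marks the 1 difference with an adjusted p under 0.05, Bcl2 probe A_51_P380013 at 1.23, and the widest intervals are those of Bbc3.

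Among the BH3-only genes, Bcl2l11 (Bim) had the lowest levels with blockade. Its bright probe, A_52_P158527, had unscaled intensities of 949 and 937 with blockade and 1730 and 4464 in KO IgG, against 1447 and 2434 in WT IgG. The normalised log2 levels were 9.997 and 10.32 with blockade and 10.89 and 11.64 in KO IgG, against 10.66 and 11.003 in WT IgG. Both blockade arrays lay under all 4 others, and the KO IgG and WT IgG arrays overlapped. The difference of -1.10 between blockade and KO IgG (SE 0.28, 95% interval -1.80 to -0.41) missed the threshold after adjustment (limma adjusted p = 0.0884). The blockade minus WT IgG difference was -0.67 (SE 0.28, limma adjusted p = 0.279), and that of KO IgG against WT IgG was 0.43 (SE 0.28, limma adjusted p = 0.404). Without KO IgG array 2, the blockade minus KO IgG difference was -0.74 (limma adjusted p = 0.124). On the 75th percentile scale, where the median bright probe was higher by 1.09 with blockade than in KO IgG, it was -0.01, or -1.10 relative to that median.

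Of the dim Bcl2l11 probes, A_51_P484880 shares the accession of the bright one and read 38.5 and 59.3 with blockade and 100 and 342 in KO IgG, against 63.3 and 109 in WT IgG. It was lowest with blockade in unscaled intensity, while relative to the median bright probe its log2 values were -4.71 and -3.71 with blockade and -3.39 and -2.24 in KO IgG, against -3.90 and -3.55 in WT IgG, and blockade overlapped with WT IgG. Probe A_52_P348214, which carries the accession of another transcript, read 8.29 and 13.6 with blockade, not well above background on either array, and 32.7 and 76.6 in KO IgG, against 66.8 and 21.2 in WT IgG. A_55_P2504051, with that same accession, ran the other way between blockade and WT IgG. It read 67.8 and 132 with blockade and 41.7 and 80.4 in KO IgG, against 40.3 and 49.1 in WT IgG, so both blockade arrays exceeded both WT IgG arrays and overlapped with KO IgG in unscaled intensity. Relative to the median bright probe of the same array its log2 values were -3.89 and -2.56 with blockade and -4.65 and -4.32 in KO IgG, against -4.56 and -4.71 in WT IgG, with blockade above both others. On the 75th percentile scale, which admits this probe, it was higher with blockade than in KO IgG by 2.26 (limma adjusted p = 0.0173). Most of the probes tested on that scale passed in that comparison. The blockade minus WT IgG difference of 1.44 did not pass (limma adjusted p = 0.578).

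Bbc3 (Puma), a target of p53 and of FOXO factors, had normalised log2 levels of 9.29 and 8.98 with blockade and 9.34 and 11.27 in KO IgG, against 9.20 and 9.57 in WT IgG. Its unscaled intensity was 3482 on KO IgG array 2 and between 349 and 893 on the other 5 arrays. KO IgG array 2 was therefore the single high array. It also had the highest sums of B cell, myeloid and erythroid markers, and a link of these to Bbc3 was not tested. The blockade minus KO IgG difference was -1.17 (SE 0.60, limma adjusted p = 0.254) with all arrays and -0.20 (limma adjusted p = 0.606) without that array. For KO IgG against WT IgG it was 0.92 (SE 0.60, limma adjusted p = 0.407) with all arrays and -0.05 (limma adjusted p = 0.925) without it.

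Bid, which caspase-8 cleaves to link death receptors to mitochondria, had 4 arrays with the Irf4 KO label above both WT IgG arrays. Its normalised log2 levels were 8.98 and 8.92 with blockade and 8.95 and 9.14 in KO IgG, against 8.42 and 8.45 in WT IgG. Blockade and KO IgG overlapped. The difference from WT IgG was 0.52 for blockade (SE 0.12, limma adjusted p = 0.117) and 0.62 for KO IgG (SE 0.12, limma adjusted p = 0.0663), and neither passed. On the 75th percentile scale the KO IgG difference was -0.23, which is 0.82 above the median bright probe.

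Bad, a BH3-only protein held inactive by phosphorylation, was highest with blockade. It had normalised log2 levels of 11.36 and 11.43 with blockade and 10.77 and 10.93 in KO IgG, against 11.13 and 10.68 in WT IgG. Both blockade arrays lay above all others. The differences of 0.55 from KO IgG (SE 0.18, limma adjusted p = 0.123) and 0.49 from WT IgG (SE 0.18, limma adjusted p = 0.223) did not pass, and that of KO IgG against WT IgG was -0.06 (SE 0.18, limma adjusted p = 0.869).

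Pmaip1 (Noxa), a partner of Mcl1, was dim. Its single probe read 201 and 146 with blockade and 290 and 285 in KO IgG, against 93.6 and 165 in WT IgG, well above background on every array. Relative to the median bright probe of the same array the log2 values were -2.32 and -2.41 with blockade and -1.85 and -2.50 in KO IgG, against -3.34 and -2.95 in WT IgG. On that scale the 4 arrays labelled Irf4 KO lay above both WT IgG arrays, and blockade and KO IgG overlapped. In unscaled intensity blockade overlapped with WT IgG. The share of dim probes that separate relative to the median was not counted, so this is not read as particular to Pmaip1. On the 75th percentile scale its difference from WT IgG was 0.006 for KO IgG (limma adjusted p = 0.989) and 0.81 for blockade (limma adjusted p = 0.634). With a minimum of 7 these differences were 0.59 and 0.75 (limma adjusted p = 0.219 for each).

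**Figure D3:**
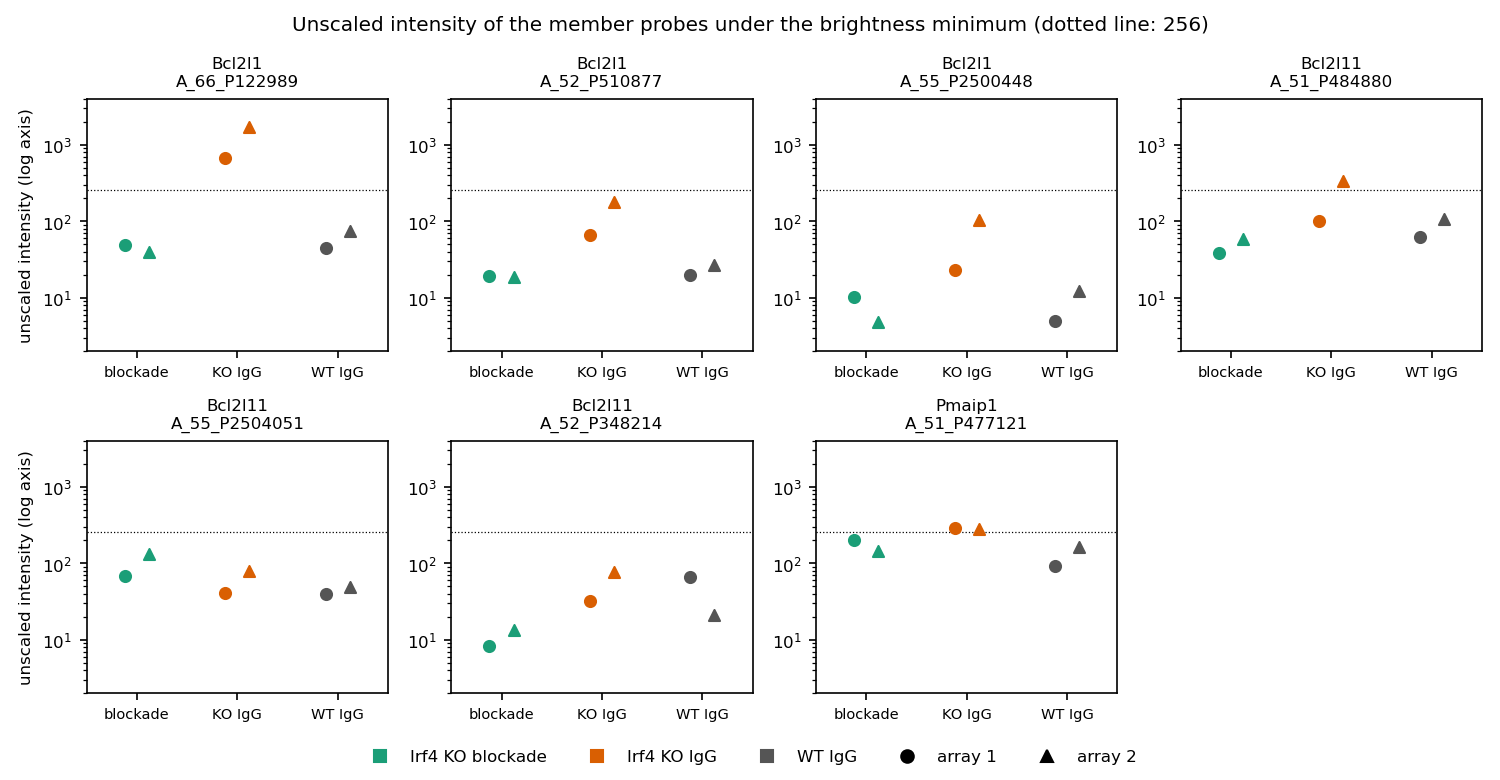
Unscaled intensity (log axis) of the 7 member probes under the brightness minimum on each array, with circles for array 1 and triangles for array 2, in blockade, KO IgG and WT IgG from left to right, and the intensity of 256 as a dotted line. Bcl2l1 probe A_66_P122989 reads 666 and 1718 in KO IgG and under 75 on the other 4 arrays.

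The unscaled dim probes have to be read against the array. KO IgG arrays exceeded WT IgG arrays without overlap at 4 of the 7 dim member probes, beside 63.1% of all dim probes, and blockade arrays lay under KO IgG arrays at 6 of 7, beside 69.5%. Blockade arrays lay under WT IgG arrays at 3 of 7 (beside 20%) and above them at 1 of 7, A_55_P2504051 of Bcl2l11 (beside 3.89%). For values relative to the median bright probe no such share was counted.

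Promoters are shown for Bcl2, the gene that passed, and for Bcl2l11 and Bbc3, both targets of FOXO factors. For Bcl2l11 and Bbc3 only a promoter that holds the FOXO motif is shown, so its presence in those sequences was fixed by the choice. RefSeq sequences of GRCm38.p6 covered 15 promoters of 9 members, each taken as the 250 bases before a start. The FOXO motif GTAAACA, searched on both strands, was in 3.17% of 32851 promoters and in 2 of the 15, one each of Bbc3 (chr7:16310011-16310260, plus strand) and Bcl2l11 (chr2:128125788-128126037, plus strand). The match begins 167 bases before the start in Bbc3 and 227 in Bcl2l11. The Bcl2 promoter shown (chr1:106714291-106714540, minus strand) holds none. Sequences run 5′ to 3′ along the gene, and capitals mark the motif, read on the opposite strand in Bbc3.
Bcl2: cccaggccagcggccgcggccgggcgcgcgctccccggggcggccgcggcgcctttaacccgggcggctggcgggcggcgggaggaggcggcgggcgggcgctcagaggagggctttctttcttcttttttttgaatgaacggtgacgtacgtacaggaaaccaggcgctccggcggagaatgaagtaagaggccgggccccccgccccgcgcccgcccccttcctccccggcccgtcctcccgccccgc
Bcl2l11: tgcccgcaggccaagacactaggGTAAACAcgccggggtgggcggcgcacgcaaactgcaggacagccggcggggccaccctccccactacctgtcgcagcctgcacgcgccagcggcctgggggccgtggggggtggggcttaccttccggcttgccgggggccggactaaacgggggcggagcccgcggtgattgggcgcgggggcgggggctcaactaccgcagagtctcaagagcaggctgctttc
Bbc3: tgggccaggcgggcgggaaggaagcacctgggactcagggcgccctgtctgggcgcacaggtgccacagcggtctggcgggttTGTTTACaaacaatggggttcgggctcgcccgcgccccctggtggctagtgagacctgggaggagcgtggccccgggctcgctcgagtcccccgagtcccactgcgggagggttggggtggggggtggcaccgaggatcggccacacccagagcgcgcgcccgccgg

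Motifs bound by IRF factors were searched in the same windows on both strands. The interferon-stimulated response element (2.98% of all promoters), the short and the spaced composite of an AP-1 with an IRF motif (0.1% and 0.0974%), and the AP-1 motif TGANTCA that both composites contain (6.75%) were in 0 of the 15 member promoters. The letters searched were not in these windows, and a match or its lack is a description of sequence only.

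The balance of pro-survival against BH3-only genes was described by their difference in log2 intensity on the same array, which cancels any single scale of that array. Each difference was set to 0 at the WT IgG mean, and all 15 pairs were formed from the brightest probe of each gene, with no test. Against Bcl2l11, all 3 pro-survival genes stood higher with blockade than in WT IgG. Bcl2 minus Bcl2l11 was 1.73 and 0.98 with blockade and 1.29 and 0.70 in KO IgG, against 0.32 and -0.32 in WT IgG. Both groups labelled Irf4 KO lay above WT IgG for this pair, and they overlapped each other. Mcl1 minus Bcl2l11 was 1.27 and 0.83 with blockade and 0.49 and -0.50 in KO IgG, against 0.37 and -0.37 in WT IgG. Bcl2l1 minus Bcl2l11 was 0.99 and 0.48 with blockade and -0.29 and -0.66 in KO IgG, against 0.22 and -0.22 in WT IgG. For Mcl1 and Bcl2l1 the blockade arrays alone stood above WT IgG, and KO IgG overlapped with WT IgG or lay under it. The same holds for most of the array: of all other bright probes, 81.1% were higher relative to Bcl2l11 with blockade than in WT IgG, and 82.5% higher than in KO IgG, without overlap. For KO IgG against WT IgG that share was 4.06%, and Bcl2 was the 1 of the 3 pro-survival genes among them.

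The share of all bright probes was counted for Bcl2l11 alone, so separations against the other BH3-only genes are not read as results about the pro-survival genes. Against Bbc3, Bcl2 and Mcl1 also stood higher with blockade than in WT IgG. Bcl2 minus Bbc3 was 0.98 and 0.93 with blockade and 1.22 and -0.42 in KO IgG, against 0.36 and -0.36 in WT IgG. Mcl1 minus Bbc3 was 0.51 and 0.77 with blockade and 0.42 and -1.62 in KO IgG, against 0.40 and -0.40 in WT IgG. Bcl2l1 minus Bbc3 overlapped between blockade and WT IgG, and KO IgG lay under both, at -0.36 and -1.78.

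Against Pmaip1 the order turned. Mcl1 minus Pmaip1 was -0.41 on both blockade arrays and -0.84 and -0.44 in KO IgG, against 0.40 and -0.40 in WT IgG. Bcl2l1 minus Pmaip1 was -0.69 and -0.75 with blockade and -1.63 and -0.60 in KO IgG, against 0.26 and -0.26 in WT IgG, so that both groups labelled Irf4 KO lay under WT IgG for both pairs, narrowly so for Mcl1. Bcl2 minus Pmaip1 overlapped in all groups. The Pmaip1 probe is dim, and weak probes were brighter on the KO IgG arrays, which a single scale per array does not cancel. Bcl2 minus Bad was 0.43 and -0.08 with blockade and 1.497 and 1.48 in KO IgG, against -0.08 and 0.08 in WT IgG, so that KO IgG stood above both other groups. Bcl2 minus Bid was 0.30 and -0.01 with blockade and 0.59 and 0.58 in KO IgG, against 0.18 and -0.18 in WT IgG. Bcl2l1 minus Bid was -0.45 and -0.50 with blockade and -0.99 and -0.77 in KO IgG, against 0.08 and -0.08 in WT IgG, with WT IgG the highest. Bcl2l1 minus Bad was also lower with blockade (-0.32 and -0.58) than in WT IgG (-0.18 and 0.18). Mcl1 minus Bad was 0.70 and 0.29 in KO IgG, above both other groups. Mcl1 minus Bid overlapped between WT IgG and each other group. Of the 15 pairs, blockade lay above WT IgG without overlap for 5 and under it for 4. The counts were 4 and 5 for KO IgG against WT IgG, and 7 and 4 for blockade against KO IgG. The pairs reuse the same probes, and no share over all bright probes was counted for the 15 together. These counts are therefore not read as a result about the balance.

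**Figure D4:**
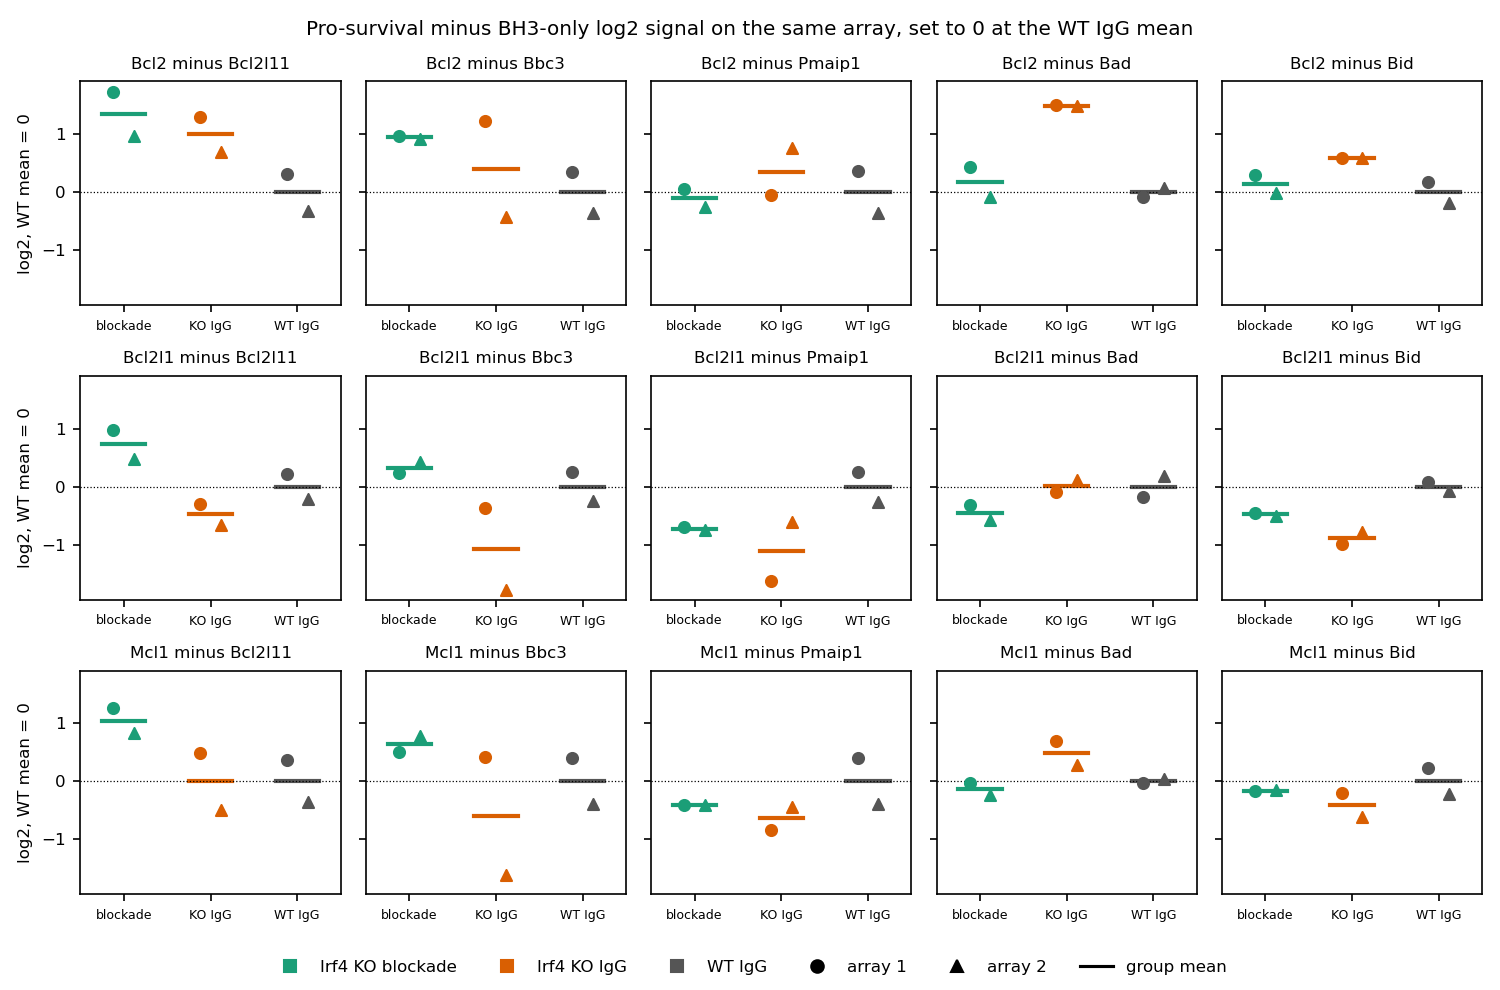
Pro-survival minus BH3-only log2 signal on the same array (vertical axis, WT IgG mean at 0) for the 15 pairs, with circles for array 1, triangles for array 2 and a bar for the group mean, in blockade, KO IgG and WT IgG from left to right. The left column shows the 3 pro-survival genes against Bcl2l11, where both blockade arrays lie above both WT IgG arrays, and Bcl2 minus Bad stands at 1.497 and 1.48 in KO IgG.

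Other genes of the pathway were taken from lists by function. Of 18 further Bcl2 family genes, 15 were measured and 8 tested, and limma called 0 of them in any comparison. Of 22 mitochondrial apoptosis genes 15 were tested, with a median log2 fold change of -0.17 for KO IgG against WT IgG, 0.36 for blockade against KO IgG and 0.12 for blockade against WT IgG. Of 17 death receptor genes 14 were tested, and 2 fell in KO IgG against WT IgG. They were Tnf, a cytokine that can signal death (-1.12, SE 0.13, limma adjusted p = 0.0285), and Ripk3, a kinase of necroptosis (-0.92, SE 0.11, limma adjusted p = 0.0304). Neither passed with blockade against WT IgG, at -0.87 for Tnf (limma adjusted p = 0.0566) and -0.22 for Ripk3 (limma adjusted p = 0.357).

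Of 16 targets of p53, 6 were tested, and Sesn1, a stress-induced regulator of growth signalling that FOXO factors also induce, rose in both groups labelled Irf4 KO. It read 4220 and 4234 with blockade and 4341 and 5859 in KO IgG, against 1577 and 2124 in WT IgG. The log2 fold change against WT IgG was 1.45 with blockade (SE 0.16, limma adjusted p = 0.0289) and 1.42 in KO IgG (SE 0.16, limma adjusted p = 0.0250). Of 40 regulators of Bcl2 family transcription and protein stability, 27 were tested and 0 were called in any comparison. Their median log2 fold change was 0.18 for KO IgG against WT IgG, with 19 of 27 positive, beside 4870 of 10225 bright probes. It was -0.38 for blockade against KO IgG, with 4 of 27 positive, beside 5455 of 10225, and -0.18 for blockade against WT IgG, with 9 of 27 positive, beside 5129 of 10225.

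Likeness of pattern over the 6 arrays was ranked by Pearson correlation of normalised log2 level among 8298 bright probes of named genes, as a description. The genes most like Bcl2 were Slc25a45 (0.991), Fastk (0.990) and Snx1 (0.988), and those most like Bcl2l11 were Sf1 (0.997), B3gat3 (0.994) and Trit1 (0.989). The 6 points are shared by all genes and fall into 3 groups, and with this few points many probes reach a high correlation.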

How the data were processed

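The deposited scanner files hold, per the file headers, Agilent Feature Extraction 11.0.1.1 output, while version 9.1 stands in the submitters' processing notes. The value used is the processed signal, a background-subtracted intensity of each spot that the authors deposited unscaled between arrays. The deposited value table, which holds the same intensity divided by a single number per array, was used as an alternative. Per the labels' protocols, Cy3-labelled cRNA was amplified from total RNA. Control spots and unusable spots were dropped, leaving 55371 of 56605 probes, and spots of the same probe were averaged as log2 intensity. RefSeq accessions named 58.3% of probes. Probe positions are not printed, because the headers' build differs from the reference tables'. Saturated spots numbered 0.

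The 10225 probes with a mean log2 of at least 8 were quantile-normalised and fitted with limma 3.58.1 in R 4.3.3 (lmFit and eBayes, 3 groups, 6 arrays, 3 residual degrees of freedom). P-values were adjusted over all of them (Benjamini-Hochberg). The procedure was run on simulated data with independent noise and a single shift per array. The simulation held no rise of weak probes on some arrays and no other cells, so it does not cover these features. All arrays lie on 1 slide and were scanned together, and slide row was tried as a block. The alternatives were another scale, normalisation, brightness minimum, background correction or input table, the brightest probe of a gene, replicate or slide row blocks, the 4 arrays compared, and each array left out. A minimum of 8 on every array was chosen after seeing the data. The members, the gene lists and the settings were chosen with earlier results of these data known. All members are named with every probe. Of other lists, genes with an adjusted p under 0.05 in some comparison are named, except for items that are not reported here, and for Bcl2 and Bcl2l11 the 3 named genes of highest correlation.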

Additional observations from a re-analysis of the deposited data

How the results depend on the processing

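Of 576 member values recomputed under other settings, 519 kept their direction and side of the threshold, 37 changed sign and 10 no longer passed. Newly passing values numbered 14, of which 4 are among those that changed sign. The causes were not tested.

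In KO IgG against WT IgG, 246 probes passed. The number was 19696 with the 75th percentile scale, 429 with the median of bright probes, 90 with a minimum of 9, 160 with the brightest probe per gene, 94 with the slide row as a block, 6 with the 4 arrays compared, 120 with at least 8 on every array, and 5 to 151 with an array left out. Member probes that passed numbered 1. On the 75th percentile scale they numbered 6 of 17 (1 higher, 5 lower), beside 19696 of 34988 probes. They numbered 2 with the median, 0 with a minimum of 9, 0 with the 4 arrays compared and 0 with any array left out. With a minimum of 7 they numbered 2, Bcl2 and Bcl2l1 probe A_66_P122989, which reached that minimum through the KO IgG arrays. Bcl2 probe A_51_P380013 kept its direction in 17 of 17 other settings (0.36 to 1.38, limma adjusted p 0.0285 to 0.257) and passed in 7. Signs turned on the 75th percentile scale for Mcl1 (-0.64), Bcl2l11 (-0.63), Bax A_51_P254541 (-0.87), Bbc3 (-0.039) and Bid (-0.23). With an array left out, Bcl2l1 ranged over -0.33 to 0.11, Bax A_51_P254541 over -0.052 to 0.23, Bbc3 over -0.051 to 1.92 and Bad over -0.28 to 0.16.

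In blockade against KO IgG, 92 probes passed (45 higher, 47 lower). The number was 19830 on the 75th percentile scale, 939 with the median (623 higher, 316 lower), 27 with cyclic loess, 17 with a minimum of 9, 28 with the brightest probe per gene, 0 with the slide row, 0 with the 4 arrays compared, 51 with at least 8 on every array, and 0 to 405 with an array left out (405 without KO IgG array 2). Member probes that passed numbered 0. On the 75th percentile scale they numbered 9 of 17 (8 higher, 1 lower), beside 19830 of 34988 probes. With a minimum of 7 there was 1, Bcl2l1 probe A_66_P122989, which reached that minimum through the KO IgG arrays. Signs turned on the 75th percentile scale for Bcl2 (0.35 and 0.18), Mcl1 (1.04), Bax A_51_P254541 (0.90) and Bid (0.79), and with the median for Mcl1 (0.045). With an array left out, Bcl2l1 ranged over -0.061 to 0.38, Bax A_51_P254541 over -0.24 to 0.042 and Bid over -0.19 to 0.00069.

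In blockade against WT IgG, 74 probes passed. The number was 0 on the 75th percentile scale, 148 with the median, 160 with cyclic loess, 124 with normexp, 27 with the slide row, 122 with the 4 arrays compared, and 0 to 128 with an array left out. Bax, close to 0, turned sign at A_55_P2137406 on the 75th percentile scale (0.043), with the median (0.011), cyclic loess (0.00017), a minimum of 7 (0.0012), the brightest probe (0.0091) and at least 8 on every array (0.0027), and at A_51_P254541 on the 75th percentile scale (0.029), with cyclic loess (0.0019) and with normexp (0.034). With an array left out, Bcl2l1 ranged over -0.028 to 0.13, Bax over -0.071 to 0.070 and -0.13 to 0.11, and Bak1 over -0.22 to 0.13.

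Same-numbered arrays did not deviate together (correlations of 0.04, -0.18 and 0.05), so the numbers are not taken to pair the samples. With the replicate block, 68 probes and 0 member probes passed in KO IgG against WT IgG (Bcl2 probe A_51_P380013 at 1.23, limma adjusted p = 0.0685), and 60 probes passed in blockade against KO IgG. Signal over background limits the 7 dim probes. Of these, Bcl2l1 probe A_66_P122989 passed on the 75th percentile scale as well (3.01 for KO IgG against WT IgG, limma adjusted p = 0.00584, and -3.04 for blockade against KO IgG, limma adjusted p = 0.00589), and Bcl2l11 probe A_55_P2504051 in blockade against KO IgG. Most probes tested on that scale passed in these comparisons (19696 of 34988 for KO IgG against WT IgG), so passing there sets neither probe apart.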

Other observations

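Some of the near-identical Bcl2a1 copies, pro-survival genes whose probes may take up each other's transcripts, were bright. Bcl2a1d had unscaled intensities of 5058 and 3082 with blockade and 3968 and 6969 in KO IgG, against 6500 and 9366 in WT IgG, and its log2 fold change against WT IgG was -0.68 with blockade (SE 0.17, limma adjusted p = 0.134) and -0.56 in KO IgG (SE 0.17, limma adjusted p = 0.144). Bcl2a1c read 378 and 210 with blockade and 339 and 523 in KO IgG, against 437 and 673 in WT IgG, with -0.59 for blockade (SE 0.16, limma adjusted p = 0.149) and -0.76 for KO IgG (SE 0.16, limma adjusted p = 0.0761). None of these passed. They were picked from the further Bcl2 family genes after their values were seen.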
